A study of Homo sapiens with 3 samples.

Results

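FOS, FOSB, FOSL1, FOSL2, JUN, JUNB and JUND encode the FOS and JUN subunits of the transcription factor AP-1. These 7 genes, of 19775 measured genes, were followed on arrays of T47D cells after a short exposure to estradiol or tamoxifen. All 17 probe sets that carried only the symbol of one of these genes were taken, and none was left out. FOSL2 had 5 probe sets, JUN and JUND had 4 each, and FOS, FOSB, FOSL1 and JUNB had 1 each.

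T47D is an established line of human breast cancer cells that carry the estrogen receptor. All cells were first held for 4 h in medium whose serum (10%) had been stripped with charcoal, a treatment that removes steroids. The vehicle cells then received 0.1% ethanol for 3 h, the estradiol cells 1 uM of the natural estrogen, and the tamoxifen cells 1 uM of this drug, which binds the same receptor. Each treatment was read on 1 array, so no difference has a replicate check, no test was possible, and the number of arrays limits every value.

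AP-1 is a dimer that binds DNA through a basic region and holds together through a leucine zipper. JUN proteins pair with one another or with FOS proteins, whereas FOS proteins need a JUN partner. Several of these genes are immediate early genes: growth factors, stress and serum switch them on within minutes, and their short-lived messages then fall away. In breast cancer cells the estrogen receptor is also known to act on some genes through AP-1 bound to DNA.

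The values are log2 expression values that had been centred for each probe set before deposit. They hold no signal level, so one gene cannot be set against another and the luminal identity of the cells cannot be checked on them. Only the difference between arrays for the same probe set can be read. Unless called deposited values, differences below are on the log2 scale and relative to the median of all genes. That median was -0.0057 in the comparison of estradiol with vehicle, 0.10 in that of tamoxifen with vehicle and 0.11 in that of tamoxifen with estradiol. Folds were computed from these differences, and a gene or probe set was past the cutoff at 2-fold, an absolute log2 difference of 1.

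The vehicle array stood apart from both treated arrays in several control probe sets, though not in all. Here, as deposited, 18S ribosomal RNA was 1.86 lower on it than on the estradiol array and 1.96 lower than on the tamoxifen array, and the 24 probe sets of polyadenylated spike transcripts had medians 0.70 and 0.49 lower. For 28S ribosomal RNA the 5' end was 2.08 and 2.20 lower on vehicle, whereas the 3' end differed by 0.074 and 0.045. The signal at the 3' end minus that at the 5' end of ACTB was -0.78 for estradiol and -0.77 for tamoxifen relative to vehicle. The estradiol and tamoxifen arrays differed from each other by 0.043 in 18S ribosomal RNA and by 0.0058 in that ACTB measure. Both comparisons with vehicle rest on this 1 array, its part in them was not tested, and tamoxifen minus estradiol is the comparison without it.

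The stretches before the annotated starts are shown because JUN, JUNB, JUND and FOSB were lower on both treated arrays while FOS was not. They come from RefSeq (GRCh38.p14), which matched 6 of the 7 members and not FOSL1, and are written 5' to 3' on the strand of the gene, ending with the last base before the start. Capitals mark the letters TGACG, the half-site of the cyclic AMP response element (CRE), the full CRE TGACGTCA, the AP-1 site TGACTCA or its JUN variant TGACATCA, on either strand.

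JUN, chr1:58784048-58784187, minus strand: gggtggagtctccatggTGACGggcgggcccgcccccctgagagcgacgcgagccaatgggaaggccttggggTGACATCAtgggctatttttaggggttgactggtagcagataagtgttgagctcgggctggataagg
JUNB, chr19:12791346-12791485, plus strand: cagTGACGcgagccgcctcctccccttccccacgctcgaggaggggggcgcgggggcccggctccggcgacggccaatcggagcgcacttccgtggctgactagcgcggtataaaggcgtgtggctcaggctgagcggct
JUND, chr19:18281623-18281872, minus strand: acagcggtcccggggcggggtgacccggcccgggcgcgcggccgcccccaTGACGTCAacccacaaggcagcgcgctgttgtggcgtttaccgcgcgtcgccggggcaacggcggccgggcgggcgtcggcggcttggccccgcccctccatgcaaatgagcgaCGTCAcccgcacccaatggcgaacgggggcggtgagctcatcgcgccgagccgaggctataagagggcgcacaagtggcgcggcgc
FOSB, chr19:45467856-45467995, plus strand: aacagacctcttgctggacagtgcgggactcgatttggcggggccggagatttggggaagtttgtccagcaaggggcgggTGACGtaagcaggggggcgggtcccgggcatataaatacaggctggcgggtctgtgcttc
FOS, chr14:75278688-75278827, plus strand: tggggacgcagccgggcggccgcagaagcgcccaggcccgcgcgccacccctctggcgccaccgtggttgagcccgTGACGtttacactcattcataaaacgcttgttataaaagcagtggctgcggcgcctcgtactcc

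Over the 250 bases before the start, the CRE half-site TGACG was found in all 6 members and in 21.2% of 35116 promoters. The share of G and C bases in the 6 windows ran from 62% (JUN) to 74.8% (JUND), and the promoters were not matched for it. In FOS, FOSB and FOSL2 the half-site lay at a like distance from the start, with its first base at -64, -60 and -66. JUN, whose protein is known to act on its own gene through the variant site TGACATCA, was the only one of the 6 with that site, at -67 (2.37% of promoters). JUND held the full palindrome TGACGTCA at -200 (1.65% of promoters), which contains the half-site on each strand. The AP-1 site TGACTCA (4.2% of promoters) and the consensus estrogen response element, a palindrome of GGTCA with 3 free bases at its centre (0.0399% of promoters), were not found in these windows. The half-element GGTCA was found in FOSB and JUND and in 32.6% of promoters. FOS, FOSB, JUNB and JUND had the letters TATAA of a TATA box at -33, -30, -31 and -29 (18.9% of promoters over the whole window), and JUN and FOSL2 did not. The FOS, FOSB, FOSL2, JUN and JUND windows held the GC box GGGCGG (42.6% of promoters), which overlaps the half-site of JUN by 1 base, and JUN, JUNB and JUND the CCAAT box CCAAT (32% of promoters). The CArG box, the core of the serum response element, was in none of the 6 windows (1.16% of promoters). These are matches of letters and were not tested for binding. Bases outside the 250 before each start were not searched, so a CArG box or other motif farther upstream would be missed.

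**Figure D1:**
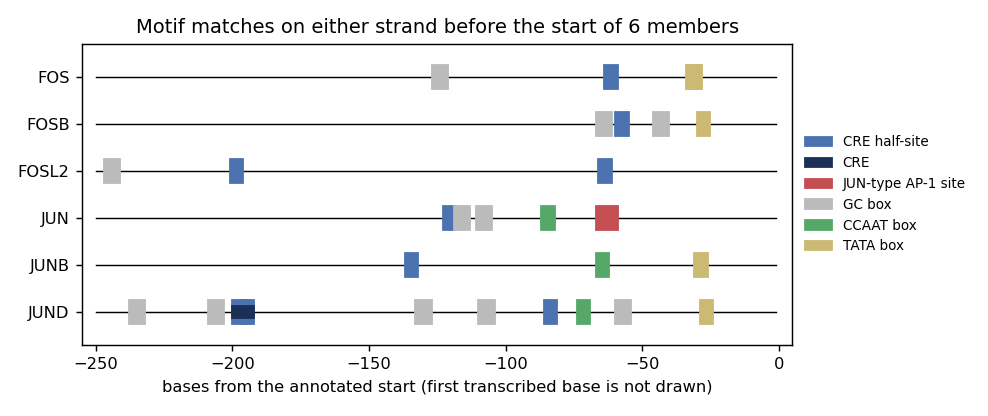
Motif matches on either strand within 250 bases before the annotated start of 6 members, drawn to scale with the distance from the start in bases on the x axis and 1 line for each gene. Blue boxes are CRE half-sites, which all 6 genes hold, the dark bar in JUND is the full CRE, the red box in JUN is the variant AP-1 site, and grey, green and sand boxes are GC, CCAAT and TATA boxes.

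JUN and JUNB gave the largest differences from vehicle among the gene values of the members, whereas JUND (-0.68 and -0.65) differed less than FOSB (-0.84 and -0.75). JUN, the founding subunit of AP-1 and a target of JNK kinases, read 1.74, 1.47, 1.81 and 1.05 on the vehicle array in its probe sets 201464_x_at, 201465_s_at, 201466_s_at and 213281_at. The same probe sets read -0.061, -0.044, 0.052 and 0.27 on the estradiol array. On the tamoxifen array they read -0.023, 0.48, -0.046 and 0.51. In each of the 4 probe sets the vehicle array was the highest. The gap to the treated arrays was smallest in 213281_at, at 0.78 for estradiol and 0.54 for tamoxifen in deposited values.

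As the median of its probe sets, JUN was 3.10-fold lower on the estradiol array than on vehicle (log2 difference -1.63, probe sets from -1.79 to -0.77). It was 2.79-fold lower on the tamoxifen array (-1.48, from -1.96 to -0.64). Of all genes, 0.17% were as low or lower for estradiol and 0.30% for tamoxifen. The 213281_at probe set, the 1 probe set of JUN without the suffix _s_at or _x_at (which mark probe sets that can match more than 1 transcript), gave the smallest difference in both comparisons. With it alone, JUN had differences of -0.78 and -0.65 and no longer passed the cutoff.

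JUNB encodes a subunit that often opposes JUN on shared targets. Its single probe set, 201473_at, read 1.24 with vehicle, -0.64 with estradiol and 0.13 with tamoxifen. The 3 arrays were therefore clearly spaced, with estradiol lowest and tamoxifen between. JUNB was 3.65-fold lower with estradiol than with vehicle (-1.87), the 16th lowest of all genes, and 2.32-fold lower with tamoxifen (-1.21).

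JUND, the subunit known for steadier expression, split by probe set. On the vehicle, estradiol and tamoxifen arrays in turn, 203752_s_at read 0.74, -0.49 and -0.29, and 214326_x_at read 1.13, -0.31 and 0.31. In both of these the vehicle array was far above the treated arrays, with differences of -1.23 and -1.44 for estradiol and -1.14 and -0.93 for tamoxifen. In contrast, 203751_x_at read 0.38, 0.25 and 0.10, and 229117_s_at read 0.072, 0.14 and 0.0084. For these the differences were -0.13 and 0.073 for estradiol and -0.38 and -0.17 for tamoxifen. The median over the 4 probe sets was -0.68 for estradiol and -0.65 for tamoxifen, short of the cutoff. The probe sets of JUND spanned 1.51 for estradiol minus vehicle, a spread that 89.2% of the 1393 genes with 4 probe sets did not exceed, and all 4 carry the suffix _s_at or _x_at.

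**Figure D2:**
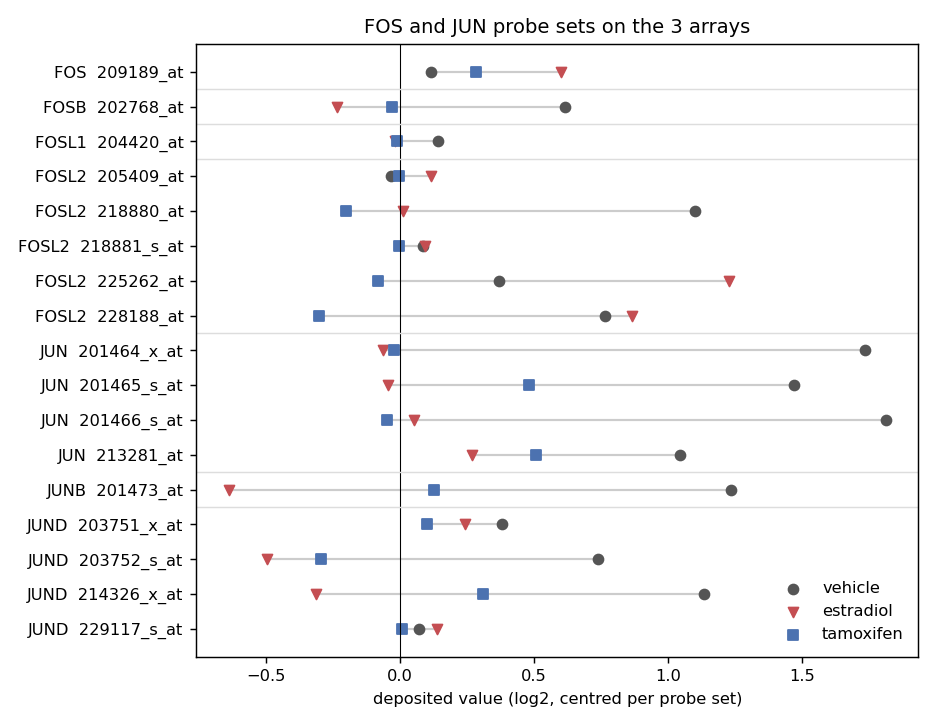
Deposited values (log2, centred for each probe set, x axis) of the 17 probe sets on the vehicle (grey circles), estradiol (red triangles) and tamoxifen (blue squares) arrays, 1 array each, with a line from the lowest to the highest array. All 4 JUN probe sets and JUNB have the vehicle array above 1 and to the right of both treated arrays. The smallest of these gaps is 0.54, to tamoxifen in 213281_at of JUN. The 5 FOSL2 probe sets show no shared order of the arrays.

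The FOS family did not move as a block. FOS, the prototype immediate early gene, read 0.12 with vehicle, 0.60 with estradiol and 0.29 with tamoxifen in 209189_at. Estradiol was the highest array and vehicle the lowest, the reverse of the order for JUNB. FOS was 1.41-fold higher with estradiol than with vehicle (0.49), where 91.2% of genes were at or below it, and differed by 0.067 with tamoxifen. The latter was 0.17 in deposited values and -0.078 after quantile normalization of the arrays, a step that stretches the vehicle array. Its sign thus depended on the scaling, and its direction is not settled.

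FOSB, another subunit induced early, read 0.62, -0.23 and -0.027 in 202768_at on the vehicle, estradiol and tamoxifen arrays. It thus had the order of JUNB, with vehicle highest and estradiol lowest. FOSB was 1.79-fold lower with estradiol (-0.84) and 1.68-fold lower with tamoxifen (-0.75), below the cutoff in size. Of all genes, 3.41% and 4.81% were as low or lower.

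FOSL1 encodes FRA1, a subunit known for high levels in invasive breast cancer cells. In 204420_at it read 0.14, -0.017 and -0.0085 on the vehicle, estradiol and tamoxifen arrays. Its values were the closest together among members with 1 probe set, with differences of -0.15 for estradiol and -0.25 for tamoxifen. A level too low to be measured cannot be told apart from a steady level in these values.

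FOSL2 encodes FRA2, and its 5 probe sets disagreed. On the vehicle, estradiol and tamoxifen arrays, 225262_at read 0.37, 1.23 and -0.082, and 228188_at read 0.77, 0.87 and -0.30. For this pair the tamoxifen array was lowest and the estradiol array highest. Unlike them, 218880_at read 1.10, 0.012 and -0.20, with the vehicle array high and both treated arrays low, as for JUN. The remaining pair hardly varied: 205409_at read -0.033, 0.12 and -0.0036, and 218881_s_at read 0.086, 0.095 and -0.0021. The median over probe sets was 0.11 for estradiol minus vehicle, from -1.08 in 218880_at to 0.86 in 225262_at, and -0.56 for tamoxifen minus vehicle, from -1.40 to -0.074. All 5 probe sets were below 0 in the latter, and 4 of 5 in deposited values, and the gene value was -0.87 without 218881_s_at. Of the 706 genes with 5 probe sets, 93.1% had no wider spread between probe sets for estradiol minus vehicle. The gene value for estradiol was 0.0100 with probe sets averaged and -0.055 after quantile normalization. With probe sets on both sides of 0, FOSL2 has no settled direction there.

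**Figure D3:**
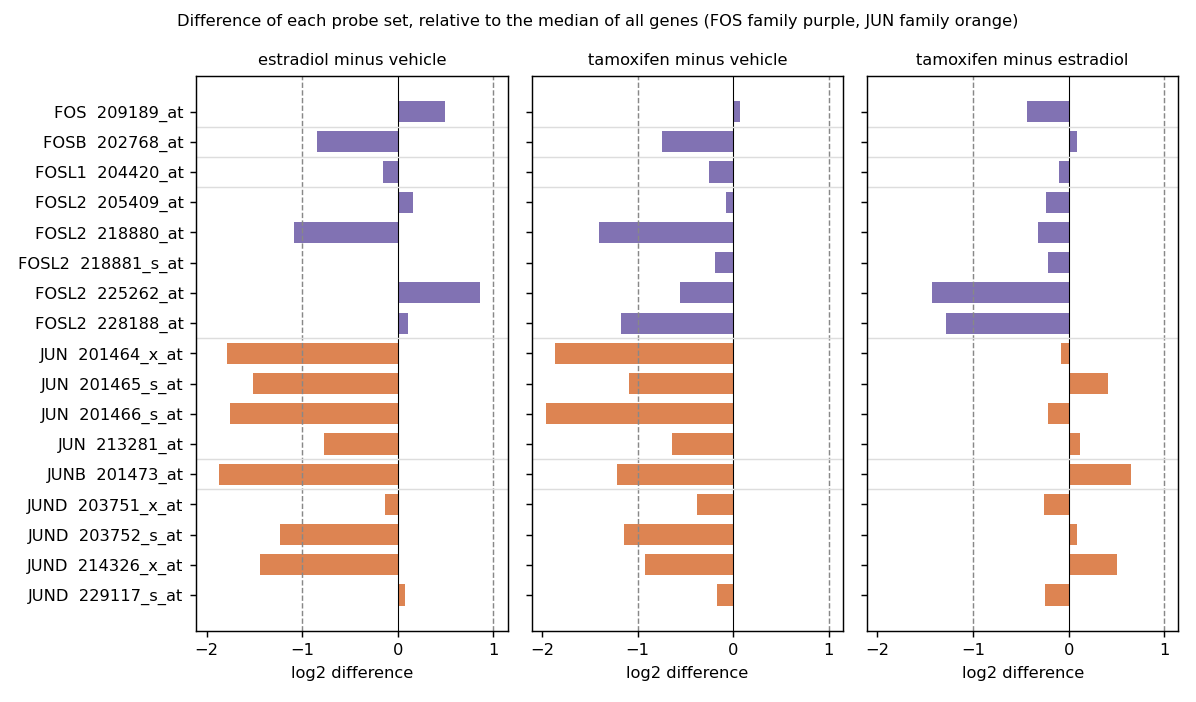
Log2 difference of each of the 17 probe sets relative to the median of all genes (x axis) for estradiol minus vehicle, tamoxifen minus vehicle and tamoxifen minus estradiol, with dashed lines at the 2-fold cutoff. The JUN family bars (orange) reach -1.87 and -1.96 against vehicle, and in the third panel the bars past the cutoff are 2 of the 5 FOSL2 probe sets.

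Counted over the members, 2 of 7 genes (JUN and JUNB) were at least 2-fold lower on the estradiol array than on vehicle, against 1.68% of all genes, and none was at least 2-fold higher (1.62% of all genes). The same 2 genes were at least 2-fold lower on the tamoxifen array (1.79% of all genes), and again none was 2-fold higher (1.65%). The median over the 7 members was -0.68 for estradiol and -0.65 for tamoxifen, against 0 for all genes by construction. By probe set, 7 of 17 were at least 2-fold lower with estradiol (2.33% of all named probe sets) and 7 of 17 with tamoxifen (2.62%). Of the 9 JUN family probe sets 6 and 5 passed, and of the 8 FOS family probe sets 1 and 2. Quantile normalization stretches the vehicle array (SD of its values 0.19, against 0.41 and 0.44 on the treated arrays). It thereby widens the differences of genes that are high on that array. With the 3 arrays quantile normalized, FOSB (-1.51 and -1.41) and JUND (-1.25 and -1.31) were past the cutoff as well in both comparisons. The share of all genes past it in either direction was then 4.8% for estradiol and 4.24% for tamoxifen, against 3.31% and 3.43% without that step. The probe sets of a gene share their transcript and are not replicates.

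Both comparisons share the vehicle array, so a high vehicle value lowers both differences. JUN and JUNB were at least 2-fold lower on both treated arrays, against 0.976% of genes. Among probe sets 6 of 17 were so, 3 of JUN and 1 each of JUNB, JUND and FOSL2, against 1.43% of named probe sets. The vehicle array was the highest of the 3 in 11 of the 17 probe sets, the estradiol array in 6 and the tamoxifen array in none. Over all named probe sets the vehicle array was highest in 33.0%. The shares for the treated arrays were not computed, so their counts have no background. The order is that of deposited values, whose medians were -0.0070 on the vehicle, -0.011 on the estradiol and 0.081 on the tamoxifen array.

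**Figure D4:**
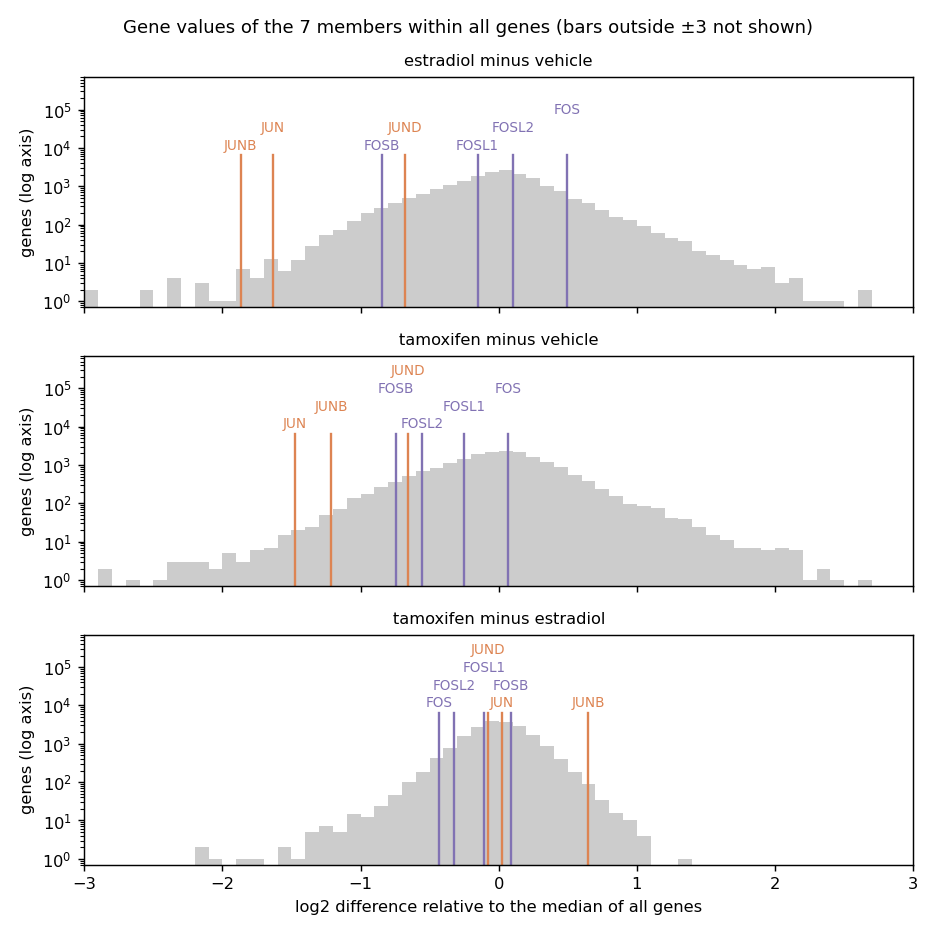
Histograms of the gene values of 19775 genes (grey, number of genes on a log axis) with the 7 members as lines (FOS family purple, JUN family orange) for the 3 comparisons; the x axis is the log2 difference relative to the median of all genes. JUNB and JUN lie in the low tail of both comparisons with vehicle, at -1.87 and -1.63 for estradiol and -1.21 and -1.48 for tamoxifen, while in tamoxifen minus estradiol JUNB is the member farthest to the right at 0.65.

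Estradiol and tamoxifen, given at the same dose and time, were compared directly, without the vehicle array. None of the 7 genes differed 2-fold between them, and 0.228% of all genes did. JUNB was 1.57-fold higher with tamoxifen than with estradiol (0.65), the 96th highest of all genes, and it was 0.76 higher in deposited values. FOS was 1.35-fold lower with tamoxifen (-0.43, and -0.32 in deposited values), where 3.37% of genes were as low or lower. FOSL2 had a gene value of -0.33 (-0.21 in deposited values), with all 5 probe sets below 0. JUN (0.023) and FOSB (0.091) lay near the median of all genes. FOSL1 (-0.11) and JUND (-0.081) did too, and both had the other sign in deposited values (0.0086 and 0.034). The median over the 7 members was -0.081, and 0.034 in deposited values.

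The differences of FOSL2 between the treated arrays lay mostly in 2 probe sets. The 225262_at probe set was 2.68-fold lower with tamoxifen than with estradiol (-1.42) and 228188_at 2.43-fold lower (-1.28). Of all probe sets on the array, 0.070% and 0.11% were as low or lower. The other FOSL2 probe sets had differences of -0.23, -0.33 and -0.21. These 2 of 17 were the only member probe sets at least 2-fold lower with tamoxifen than with estradiol, against 0.324% of named probe sets. Without the probe set of suffix _s_at the gene value of FOSL2 was -0.80, and with probe sets averaged it was -0.70. JUND also split, with 214326_x_at at 0.51 and its other probe sets from -0.26 to 0.084, as did JUN, with 201465_s_at at 0.41 and the others from -0.21 to 0.12.

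Proteins that pair with FOS or JUN proteins, or with their relatives, formed a list of 14, of which 12 were measured. Of these 1 was at least 2-fold lower and none 2-fold higher with estradiol, and the same counts held for tamoxifen. Of all genes, 1.68% were at least 2-fold lower with estradiol and 1.79% with tamoxifen, and 1.62% and 1.65% were 2-fold higher. The list medians were -0.16 and -0.18, and 9 and 8 of the 12 were below 0. The 1 past the cutoff was MAFF, a small MAF protein, at -1.73 for estradiol and -2.25 for tamoxifen. Its 2 probe sets disagreed, at -3.19 and -0.26 for estradiol and -4.03 and -0.48 for tamoxifen. ATF3, a stress-induced partner of JUN, was at -0.34 and -0.59, but its 3 probe sets ran from -2.97 to -0.16 for estradiol and from -2.94 to 0.074 for tamoxifen. JDP2, which represses AP-1, was at -0.56 and -0.31, with 2 probe sets at -1.05 and -0.073 for estradiol and at -0.79 and 0.16 for tamoxifen. ATF3 and JDP2 fall outside the rule for named genes and were picked after their values were seen.

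Genes that act upstream of FOS and JUN differed little as groups. Past the cutoff in either direction were 3.31% of all genes for estradiol and 3.43% for tamoxifen. Among 9 of 10 transcription factors known to drive these promoters, such as SRF and the ELK proteins, none was past the cutoff in either comparison with vehicle, with medians of 0.048 and 0.047. Of 12 of 15 kinases measured, MAP2K1, which activates ERK, was at 1.22 for estradiol and 0.80 for tamoxifen. RPS6KA1, a kinase downstream of ERK, was at -1.14 and -0.87. These were the kinases past the cutoff for estradiol, 1 in each direction; for tamoxifen there was none. The kinase list medians were 0.13 and 0.18. Of 10 genes for proteins that control the decay of FOS and JUN messages or proteins, all measured, none was past the cutoff, and their medians were -0.042 and -0.021. For tamoxifen minus estradiol no gene of the upstream, partner and decay lists was past the cutoff, against 0.228% of all genes.

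Known targets of AP-1 went both ways. Of 20 genes, all measured, 2 were at least 2-fold lower and 1 at least 2-fold higher in each comparison with vehicle. The shares of all genes were 1.68% lower and 1.62% higher for estradiol, and 1.79% and 1.65% for tamoxifen. The list medians were -0.15 for estradiol and 0.12 for tamoxifen. TIMP1, an inhibitor of matrix proteases, was at -2.33 and -2.23. HMOX1, the heme oxygenase that is also a target of NRF2, was at -1.47 and -1.28. GJA1, which encodes connexin 43, was at 2.67 and 2.28. Each of the 3 had 1 probe set. Between tamoxifen and estradiol these 3 differed by 0.092, 0.18 and -0.40. No gene of the list was past the cutoff relative to the median of all genes, and 0.228% of all genes were. The largest difference there was that of MMP13, a collagenase named after its value was seen, at 0.98, which was 1.09 and past the cutoff in deposited values.

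**Figure D5:**
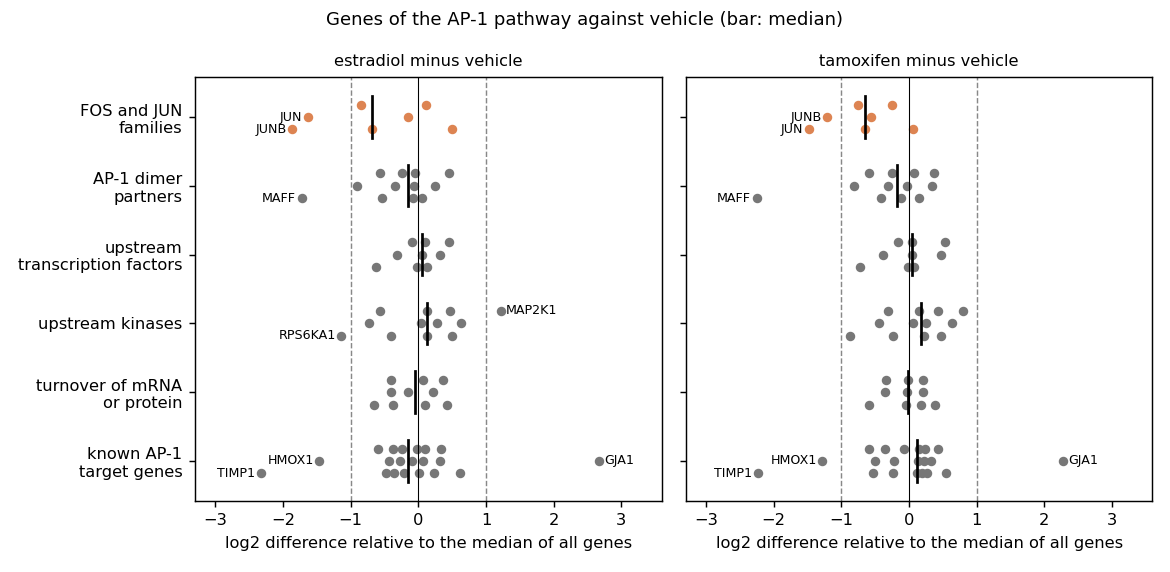
Gene values of the 7 members (orange) and of 5 lists of AP-1 pathway genes (grey) for estradiol minus vehicle and tamoxifen minus vehicle, as log2 differences relative to the median of all genes (x axis). Each point is a gene, black bars are medians, dashed lines mark the 2-fold cutoff and genes past it are named. The median of the members lies at -0.68 and -0.65, and the 5 list medians lie between -0.18 and 0.18.

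The genes nearest to JUN and JUNB over the differences estradiol minus vehicle and tamoxifen minus vehicle were sought among the 10523 genes with at least 2 probe sets, by Euclidean distance on the log2 scale over these 2 values from 3 arrays. For JUN they were GALNT6 (distance 0.054), FIBCD1 (0.097) and CEP126 (0.12). For JUNB they were GALNT6 (0.31), JUN itself (0.35) and SLITRK6 (0.39).

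Markers of other cell types were read in the same way. Of 6 fibroblast markers 4 were above 0 for estradiol and 5 for tamoxifen, with medians of 0.28 and 0.33, and none was past the cutoff. The 3 measured basal, 2 immune and 3 endothelial markers had none past it either, and their medians ran from 0.029 to 0.51 in these 2 comparisons. Luminal markers had medians of 0.043 and -0.017 over 10 genes, with 2 at least 2-fold lower and 1 at least 2-fold higher in each comparison. Since levels were not kept, summed levels of these markers cannot be given, and their part in the differences of the FOS and JUN genes was not tested. In bulk RNA, fewer cells with a transcript and less transcript in each cell cannot be told apart.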

How the data were processed

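RNA of T47D cells was hybridised to Affymetrix expression arrays with 54675 probe sets, 1 array for each treatment given in the labels. The authors deposited log2 values made with RMA, per the submitters' processing notes, with no version given. The values lie around 0 in every array, so each probe set had been centred, a step that no label records. What it was centred on is unknown, and log base 2 is taken from RMA. The method compresses the differences of weakly hybridised probe sets, which cannot be told from others here.

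Of the probe sets, 41097 had 1 gene symbol in the array's annotation, 1801 had several and were left out, and 11777 were unnamed here. Entrez identifiers of 41043 were matched to GRCh38.p14. A gene's value was the median over its probe sets of the difference between arrays, minus the median of all genes (Python 3.11.15, pandas 2.3.3, NumPy 2.4.6). The calculations were tested on simulated data with known differences. Named genes were all members, up to 4 genes past the cutoff from each pathway list, and the 3 nearest genes of each member past it. ATF3, JDP2, MMP13, TFF1, TFF3 and PGR were added after their values were seen. Members and lists were chosen with earlier results of these data known. Alternatives were deposited differences, quantile normalization of the 3 arrays, leaving out _s_at and _x_at probe sets, averaging probe sets and a 1.5-fold cutoff.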

Additional observations from a re-analysis of the deposited data

How the results depend on the processing

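Of 81 gene values of the 7 members recomputed under the other scalings and probe set rules, 71 stayed within the spread between probe sets (the SD over a gene's own probe sets or, for members with 1, its median over all genes) and on their side of the cutoff. The other 10 moved beyond that spread or, for JUND in estradiol minus vehicle, crossed the cutoff within it, and none past the cutoff changed sign. Deposited differences and averaged probe sets moved none. Deposited differences shift all genes of a comparison by the same amount, which is smaller than each spread. For members with 1 probe set, the probe set rules change only the centring. The count of 71 thus includes values that could hardly move. With the 3 arrays quantile normalized, which stretches the vehicle array (SD of its values 0.19, against 0.41 and 0.44 on the treated arrays), estradiol minus vehicle was -1.51 for FOSB, -2.42 for JUN, -2.62 for JUNB and -1.25 for JUND. In that setting tamoxifen minus vehicle was -1.41, -2.30, -2.07 and -1.31 in the same order, 4 members were past the cutoff in each comparison with vehicle (4.8% and 4.24% of all genes, against 3.31% and 3.43% otherwise), and the member medians were -1.25 and -1.31. There 18 genes of the array differed 2-fold between tamoxifen and estradiol. Without _s_at and _x_at probe sets JUN was at -0.78 and -0.65, 1 member (JUNB) was past the cutoff in each comparison with vehicle (545 and 575 of 17100 genes), and JUND had no value. At 1.5-fold, 4 members passed for estradiol, 4 for tamoxifen and 1 for tamoxifen minus estradiol, and 2997, 3009 and 417 of all genes did.

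The share of higher genes among all genes past the cutoff was 49.1% for estradiol minus vehicle (37.1% after quantile normalization). It was 48.0% for tamoxifen minus vehicle (66.4% as deposited, 38.6% after quantile normalization) and 11.1% for tamoxifen minus estradiol (42.9% as deposited). No paired analysis was possible because each group has 1 array, and for the same reason no replicate was left out. The strength of the signal over background is unknown in centred values, so small differences of single probe sets, such as those of FOSL1 and FOS, have no measured error.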
